A study of Mus musculus with 4 samples.

Results

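The mitochondrial ribosomal proteins examined here were the genes whose name on the array began with Mrps or Mrpl followed by a digit. The rule took 77 genes, 30 with a small subunit name (Mrps) and 47 with a large subunit name (Mrpl), out of 36315 gene names on the array, and they were covered by 100 of 55681 probes. Kept were probes that the scanner software called well above background on the pair of arrays of 1 group or the other. This left 97 of the 100 probes, and 75 of the 77 genes could be tested, 29 small and 46 large. Of these 75, 74 were well above background on all 4 arrays, so the filter passed almost the whole set without regard to a difference between groups.

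The mitochondrial ribosome translates the few messenger RNAs that the mitochondrial genome encodes, all of them for membrane subunits of the respiratory chain and the ATP synthase. Its RNAs are made inside the organelle, while its proteins are encoded in the nucleus, translated in the cytosol and imported. Many of these proteins have bacterial relatives, and the others exist only in mitochondrial ribosomes. Respiration in red cell precursors takes place in mitochondria and depends on this machinery, and a part of heme synthesis takes place there as well.

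The cells were 32D-EpoR, a mouse myeloid progenitor line that depends on interleukin-3 and carries an introduced receptor for erythropoietin (Epo), the hormone that drives red cell formation. All cells were grown in RPMI with 10% FBS and 10% WEHI medium, which is a source of interleukin-3, then washed and held in RPMI with FBS but no WEHI medium. One group next received Epo at 10 U/ml and the other received none, so both groups had lost the conditioned medium. Each group was measured on 2 single-colour Agilent arrays, described as 2 independent experiments with cells of different passages, and the sources used here do not give the time with Epo. With 1 line and 2 arrays a group, the p-values measure only the spread between these samples, which may be partly technical.

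Each value is a log2 scaled signal: the log2 of the probe's processed intensity, shifted so that the 75th percentile was equal on all arrays. Before scaling, that percentile was an intensity of 224 and 250 on the arrays without Epo, and of 347 and 454 on those with it, and 41.3% to 47.9% of probes were well above background, with the highest share on the second array with Epo. Arrays of 1 group correlated at 0.993 and 0.995 over the 17554 genes tested, and arrays of different groups at 0.971 to 0.976. Of 12 myeloid progenitor markers, 11 were kept and 1, Cebpa, was lower with Epo. Among markers of other cells, 2 of 7 lymphoid, 2 of 6 macrophage, 1 of 7 stromal and 3 of 6 erythroid genes were kept. Alas2 and Slc4a1, which mark red cell precursors, were among the genes not kept. The summed unlogged signal of the lymphoid list was 1218 to 1425 without Epo and 677 to 719 with Epo, that of the macrophage list 3541 to 3639 and 4416 to 4741, that of the stromal list 289 to 310 and 76.5 to 169, and that of the erythroid list 1475 to 1833 and 1325 to 1632. The part of other cells in the results below was not tested. In a bulk sample, a change in the number of cells of a type and a change in RNA per cell cannot be told apart.

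With Epo, 21 of the 75 mitochondrial ribosomal genes were higher and 0 were lower at a limma adjusted p under 0.05, taken over all genes tested. At an unadjusted p under 0.05, limma had 28 members higher and 0 lower. Of the 17554 genes tested, 7502 had such a p, counting both directions. Over all 17554 genes, 27.4% were called, 13.1% higher and 14.3% lower, so the members' 28.0% higher stands beside a background of 13.1%, and their 0 lower beside 14.3%. The rises were 1.37-fold to 2.68-fold, and 4 reached at least 2-fold. The median log2 change was 0.22 over the 75 members and -0.062 over all genes. It was 0.26 in the first replicate and 0.20 in the second.

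The tilt to higher signal went beyond the called genes. Of the 54 members not called, 41 had a change above 0, and in all 62 members lay above 0 and 13 below. Of the 17554 genes tested, 7942 lay above 0 and 9612 below. In 51 members both arrays with Epo read higher than both arrays without it, in 8 they read lower, and in 16 the groups overlapped. For all genes tested the shares without overlap were 30.4% higher and 38.4% lower, against 68.0% and 10.7% of the members. The change had the same sign in both replicates for 60 members upward and 10 downward, and for 6760 and 8354 of the 17554 genes. Across the 75 genes, which are not independent replicates and share the same 4 arrays, the changes of the first and second replicates had a Spearman rho of 0.92 and a Pearson r of 0.87.

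**Figure D1:**
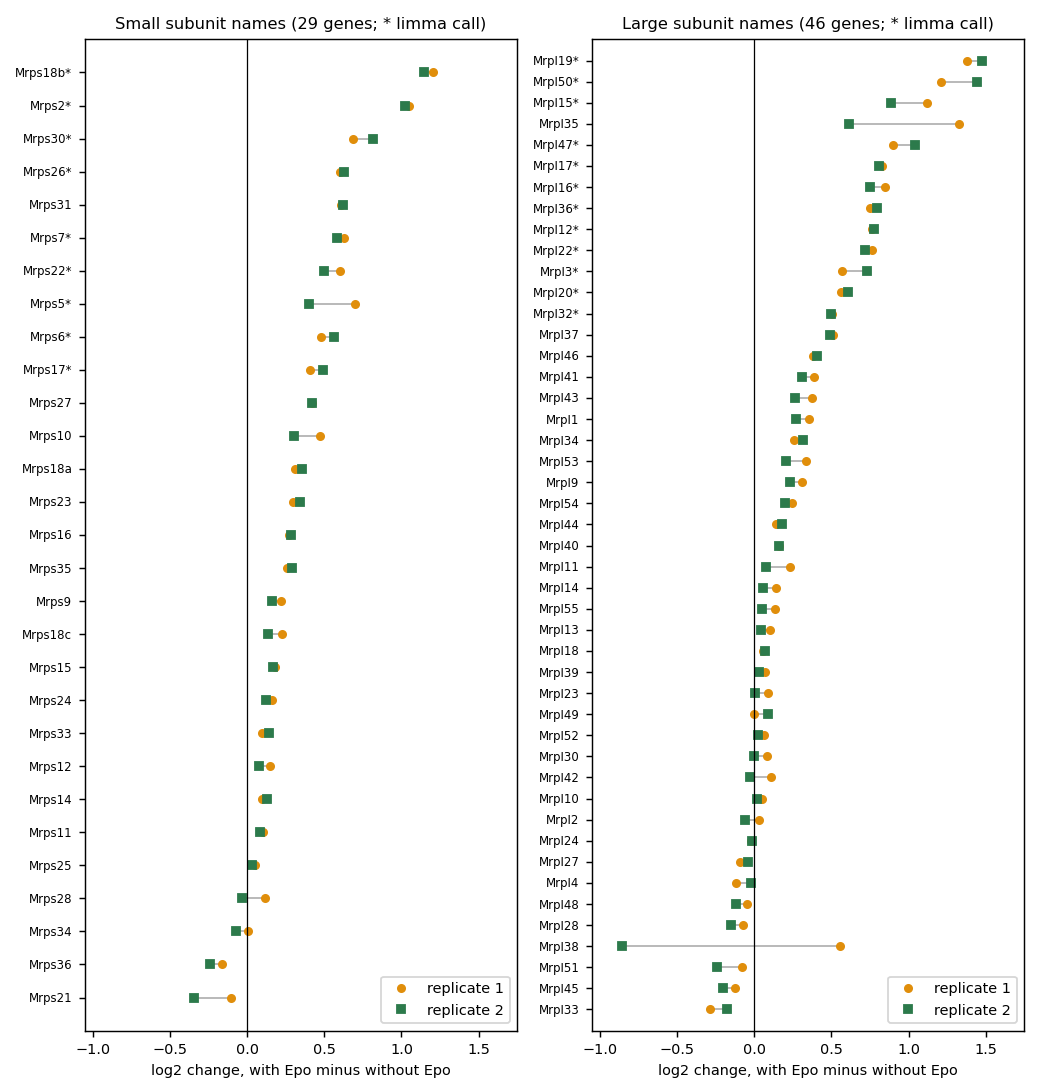
Log2 change with Epo minus without Epo for each tested gene with a small subunit name (left, 29) and a large subunit name (right, 46), with 1 point for each replicate number and an asterisk for a limma call. All 21 called genes lie right of 0 in both replicates, and Mrpl38 is the gene whose replicates lie farthest apart, at 0.55 and -0.86; the value of Mrpl35 rests on signals not well above background without Epo.

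The count of calls depended on the number of arrays. With the first array without Epo left out, 11 members (14.7%) were called higher, beside 11.5% of all genes, and with the second left out, 12 (16.0%), beside 8.88%. Leaving out the first array with Epo left 6, which is 8.0%, beside 6.25% of all genes, and leaving out the second left 7 (9.33%), beside 6.90%. The members' share was thus nearer to that of all genes in each of these fits than with all 4 arrays. The genes Mrpl15, Mrpl19, Mrpl47, Mrpl50, Mrps18b and Mrps2 were called whichever array was left out, and the other 15 lost their call at least once. All 21 stayed above 0 under each of the 12 alternatives. With the replicate number as a block, 29 members were called higher and 0 lower, where 43.1% of all genes were called, 19.9% higher and 23.2% lower. Without any scaling 64 were higher and 0 lower, where 49.0% of all genes were called, 46.9% higher, while the median of all genes moved to 0.68. The excess of the members' median over that of all genes was 0.29 here and 0.17 after quantile normalization. Scaling shifts all genes of an array equally, so leaving it out cannot change this excess. The split of calls over all genes, 2302 higher and 2502 lower, went to 8230 and 364 without scaling and to 1878 and 3651 with the percentile taken over detected probes.

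**Figure D2:**
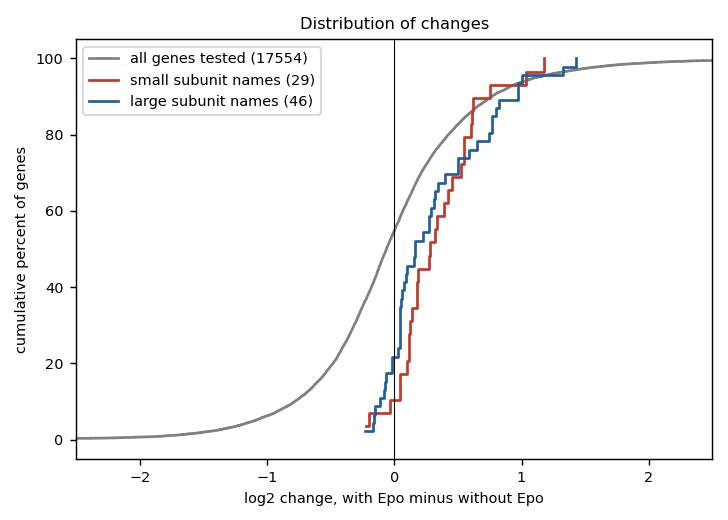
Cumulative percent of genes against the log2 change with Epo minus without Epo, for all 17554 genes tested, the 29 small subunit names and the 46 large subunit names; the axis ends at 2.5 either way, beyond which 144 genes lie, none of them a member. Both member curves lie right of the grey curve around 0 and have no tail of low changes.

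Of the 29 genes with a small subunit name, 9 were higher (31.0%) and 0 lower, at a median change of 0.28. Mrps18b encodes 1 of 3 mitochondrial relatives of the bacterial protein S18. Its signal was 13.61 and 13.45 without Epo and 14.81 and 14.60 with Epo, a change of 1.18 ± 0.14 (SE) that amounts to 2.26-fold (limma adjusted p = 0.00971). Both arrays with Epo read close to a log2 unit or more above both without. Mrps2, a relative of bacterial S2, read 10.25 and 10.34 without Epo and 11.30 and 11.36 with Epo. Its change was 1.04 ± 0.11 (SE), which is 2.05-fold (limma adjusted p = 0.00842).

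Other small subunit names with large rises were Mrps30 and Mrps26, which have no bacterial relative. Mrps30 read 11.78 and 11.75 without Epo and 12.47 and 12.56 with Epo, a 1.69-fold rise with a limma adjusted p of 0.0152. Its protein carries a small subunit name but sits in the large subunit. Mrps26 read 13.92 and 13.84 without Epo and 14.52 and 14.47 with Epo, a 1.53-fold rise with a limma adjusted p of 0.0236. Mrps22, another protein found only in mitochondria, read 11.19 and 11.31 against 11.79 and 11.81, and rose 1.46-fold with a limma adjusted p of 0.0317. In each of the 3 the lowest array with Epo read above the highest without. Mrps6 and Mrps17, named after their values were seen, rose 1.44-fold and 1.37-fold with limma adjusted p of 0.0337 and 0.0462.

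The proteins that line the path of the messenger RNA and the decoding site did not move alike. Mrps7, which lies at the messenger's exit, read 14.02 and 13.99 without Epo and 14.65 and 14.57 with Epo, a 1.52-fold rise with a limma adjusted p of 0.0242. Mrps5, at its entry, read 9.12 and 9.36 without Epo and 9.82 and 9.76 with Epo, a 1.46-fold rise with a limma adjusted p of 0.0465. Mrps12, the relative of the bacterial S12 protein that monitors decoding, read 13.47 and 13.55 against 13.62 and 13.62. Its change was 0.11 ± 0.11 (SE), with a limma adjusted p of 0.488. Counting Mrps24 and Mrps11, 2 of these 5 genes were called, and with any 1 array left out, 0 were.

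Among small subunit names, the changes nearest to 0 were those of Mrps34 and Mrps28. Mrps34 read 13.15 and 13.14 without Epo and 13.15 and 13.07 with Epo, a change of -0.034 ± 0.11 (SE). Mrps28 read 13.03 and 13.23 against 13.15 and 13.20, a change of 0.043 ± 0.13 (SE). In both genes the groups overlapped. The lowest change among small subunit names, in a gene named after its value was seen, was -0.22 ± 0.14 (SE) for Mrps21, with a limma adjusted p of 0.299.

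Of the 46 genes with a large subunit name, 12 were higher (26.1%) and 0 lower, at a median change of 0.16. The median was also 0.16 (and 0.19 over all members) with Mrpl35, which had only a bound, set to 0. Mrpl19, a relative of bacterial L19, had the largest rise of all members with 2 measured groups. It read 9.89 and 9.80 without Epo and 11.26 and 11.27 with Epo, a change of 1.42 ± 0.11 (SE), which is 2.68-fold (limma adjusted p = 0.00532). Mrpl50, found only in mitochondrial ribosomes, read 11.00 and 10.60 without Epo and 12.21 and 12.05 with Epo. Its change was 1.33 ± 0.18 (SE), which is 2.51-fold (limma adjusted p = 0.0121). For both genes the arrays of the groups stood apart by more than a log2 unit.

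Mrpl15, a relative of bacterial L15, read 11.86 and 12.00 without Epo and 12.97 and 12.88 with Epo, a 2.0-fold rise with a limma adjusted p of 0.0101. Mrpl47 corresponds to bacterial L29, and it read 12.06 and 11.91 without Epo and 12.95 and 12.95 with Epo. It rose 1.96-fold (limma adjusted p = 0.0102), and its 3 probes gave log2 changes of 0.97, 1.09 and 1.41. Mrpl15 and Mrpl47 are among the 6 genes called whichever array was left out.

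Several proteins of the large subunit surround the opening of the tunnel through which the new protein leaves. Mrpl17, a relative of bacterial L17, read 11.30 and 11.39 without Epo and 12.13 and 12.20 with Epo, a 1.76-fold rise with a limma adjusted p of 0.0132. Mrpl24, the relative of bacterial L24 at the same opening, read 13.82 and 13.74 against 13.80 and 13.72, a change of -0.017 ± 0.12 (SE). The groups of Mrpl17 stood apart, and those of Mrpl24 overlapped. Of the 8 tunnel genes (Mrpl4, Mrpl17, Mrpl22, Mrpl23, Mrpl24, Mrpl32, Mrpl45 and Mrpl47), 4 were called higher and 3 lay below 0. Mrpl22 rose 1.67-fold and Mrpl32 1.41-fold, with limma adjusted p of 0.0189 and 0.0356. With the first or second array without Epo left out, 2 and 3 of the 8 were called, and with either array with Epo left out, 1.

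Near the centre where peptide bonds form, 2 of 4 genes were higher. Mrpl16 read 12.24 and 12.38 without Epo and 13.09 and 13.13 with Epo, a 1.74-fold rise with a limma adjusted p of 0.0149. Mrpl3 read 13.36 and 13.27 without Epo and 13.93 and 14.00 with Epo, a 1.57-fold rise with a limma adjusted p of 0.0214. Mrpl2, which binds beside the same centre, read 13.71 and 13.70 against 13.75 and 13.64, and its change was -0.015 ± 0.11 (SE). The other, Mrpl27, had a change of -0.066 ± 0.11 (SE) with a limma adjusted p of 0.688. Of these 4 genes, 2 were called without the first array without Epo, 1 without the second, and 0 without either array with Epo.

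The stalk that recruits translation factors is built on Mrpl10, Mrpl11 and Mrpl12. Mrpl12, the stalk protein itself, read 14.15 and 14.24 without Epo and 14.91 and 15.02 with Epo, a 1.71-fold rise with a limma adjusted p of 0.0158. Mrpl10, its anchor, read 10.93 and 11.14 against 10.98 and 11.15, a change of 0.033 ± 0.14 (SE), and its second probe changed by 0.28. Mrpl11, at the base, read 13.61 and 13.71 against 13.85 and 13.78, a change of 0.15 ± 0.12 (SE) with a limma adjusted p of 0.365. Of the 3, Mrpl12 had the only call, and that call was lost with either array with Epo left out.

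**Figure D3:**
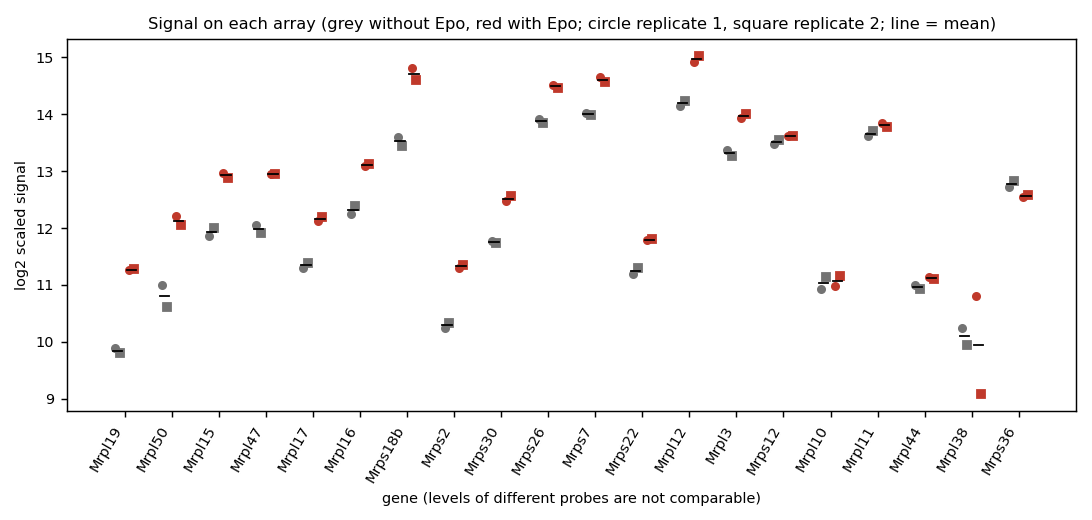
Log2 scaled signal of 20 members on each array, grey without Epo and red with Epo, circles for the first and squares for the second replicate, and a line at each group's mean of 2 arrays. The groups stand apart from Mrpl19 to Mrps7 and overlap for Mrpl10 and Mrpl38; levels of different genes come from different probes and cannot be set against each other.

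Other proteins exist only in mitochondrial ribosomes. Mrpl44, which has the fold of an RNA-cutting enzyme, read 11.00 and 10.93 without Epo and 11.14 and 11.11 with Epo, a change of 0.16 ± 0.11 (SE) with a limma adjusted p of 0.331. Mrpl37 read 8.93 and 9.26 against 9.44 and 9.75, a change of 0.50 ± 0.19 (SE). Its limma adjusted p was 0.113, and 0.0234 with the replicate block. The 4 mitochondria-specific proteins listed here for the central protuberance (Mrpl38, Mrpl40, Mrpl46 and Mrpl48) missed the threshold, with a median change of 0.039. That median was -0.086 with the percentile over detected probes and -0.068 after quantile normalization. Mrpl46 changed by 0.40 with a limma adjusted p of 0.0618, and with the replicate block it was called, at 0.0332.

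Among members with a bacterial relative, 17 of 47 were higher (36.2%) at a median change of 0.27. Among those found only in mitochondria, 4 of 27 were higher (14.8%, close to the 13.1% of all genes) at a median change of 0.22. The difference between the classes was not tested. With the replicate block the counts were 19 and 10, where 19.9% of all genes were higher. With the first and second array without Epo left out the counts were 9 and 10 for the bacterial class and 2 and 2 for the other, and without the first and second array with Epo, 5 and 6 against 1 and 1. Mrps36 stands outside both classes, as its protein belongs to the 2-oxoglutarate dehydrogenase complex.

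The median change of small subunit names exceeded that of large subunit names by 0.12. The same difference was 0.033 in the first replicate and 0.12 in the second, with an SD of 0.064 between them, so its size was not settled by 2 replicates. The shares called, 31.0% and 26.1%, were also close. Assigning Mrps18a and Mrps30 to the large subunit, where their proteins sit, and leaving out Mrps36 gave 8 of 26 small and 13 of 48 large subunit genes higher, with medians of 0.28 and 0.19. This assignment was added after the data were seen. The number of small subunit calls moved with the setting: it was 5 after quantile normalization and with the percentile over detected probes, and 14 with the replicate block. It was 3 without either array without Epo and 2 without either array with Epo. For the large subunit the count was 8 and 9 without the first and second array without Epo, and 4 and 5 without the first and second array with Epo.

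Rises were present from dim to bright probes. Among members with a mean log2 signal of 14 or more, 5 of 10 were higher, beside 4.76% of the 1617 genes of that signal on the array. In the band from 13 to under 14, 2 of 23 members were higher, beside 11.5% of genes. From 12 to under 13 the count was 7 of 15, beside 15.9% of genes, from 11 to under 12 it was 4 of 17, beside 16.9%, and below 11 it was 3 of 10, beside 13.5%. Over the 75 members the change had a Spearman rho of -0.25 with the mean signal, and over all genes 0.082. Each of these points shares the same 4 arrays.

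**Figure D4:**
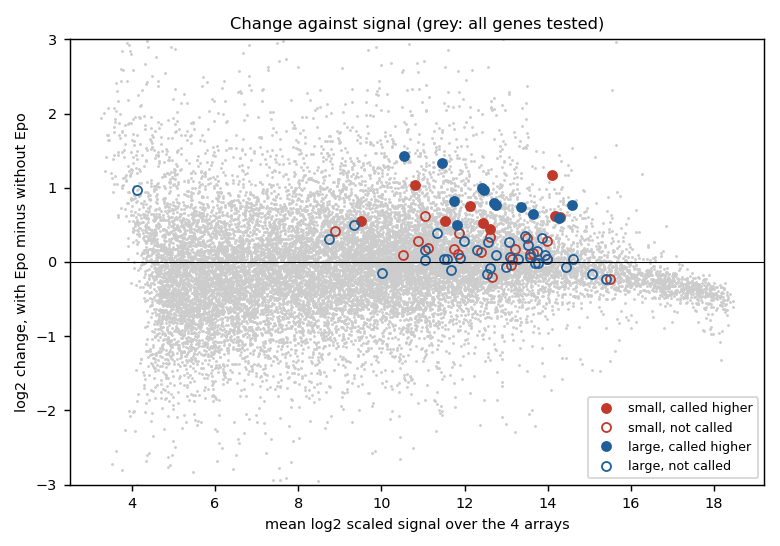
Log2 change with Epo minus without Epo against the mean log2 scaled signal over the 4 arrays, for all genes tested (grey) and for members by subunit name (filled, called higher; open, not called); the axis ends at 3 either way, beyond which 74 genes lie, none of them a member. Called members are spread along the signal axis, and the single member near a signal of 4 is Mrpl35.

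Some members could not be judged from their level. Mrpl35, a relative of bacterial L35, read 3.81 and 3.47 without Epo and 5.14 and 4.09 with Epo, and neither array without Epo had it well above background. Its mean with Epo, 4.61, did not exceed the lowest level well above background, 4.62, so no fold is given. Mrpl38, singled out after its values were seen, read 10.25 and 9.95 without Epo and 10.81 and 9.09 with Epo. Its replicates moved by 0.55 and -0.86, and without the first array with Epo it would have been the only member called lower. Mrpl21 was measured by a probe that was not well above background on any array, at 1.12 to 2.34, while a second probe described as Mrpl21 but listed under a transcript name read 13.61 and 13.47 without Epo and 13.69 and 13.60 with Epo. The pseudogene Mrps36-ps1 was at 1.14 to 2.44 and was not tested.

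For 21 members more than 1 probe was kept, which gives a second measurement of the same change. A separate fit of all kept probes had no gene whose probes differed in call. In that fit both Mrps17 probes missed the threshold, with limma adjusted p of 0.0520 and 0.0562, although the gene was called. The median range between the probes of a gene was 0.079, and 3 genes had probes that differed in sign. In Mrpl41 the brighter probe changed by 0.35 ± 0.11 (SE) and the dimmer by -0.23 ± 0.43 (SE), on arrays where the dimmer read 4.98 to 6.17. With the replicate block Mrpl41 had a limma adjusted p of 0.0442, against 0.0844 without it. The probes of Mrpl49 gave 0.046 and -0.031, and those of Mrps36 gave -0.20 and 0.023.

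**Figure D5:**
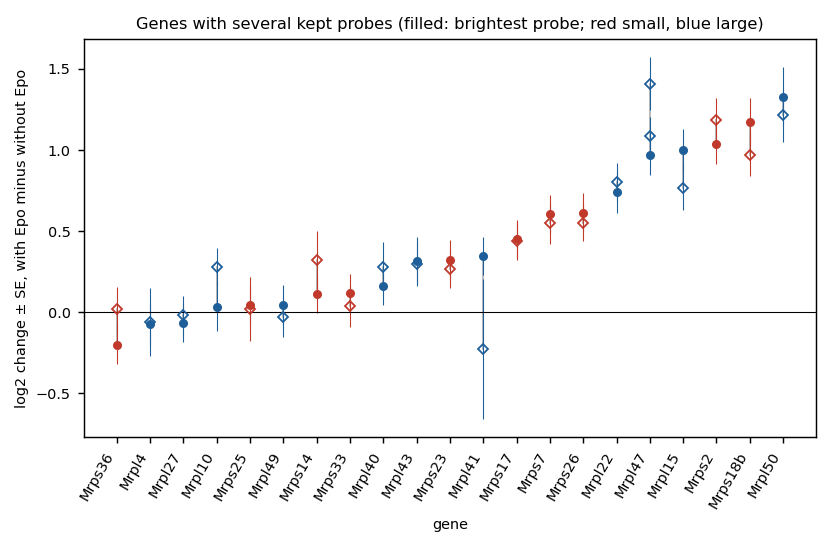
Log2 change with Epo minus without Epo, with its SE, for each kept probe of the 21 members that have several; filled points are the brightest probe and colours give the subunit name (red small, blue large). The probes of the strongly rising genes Mrpl50, Mrps18b, Mrps2, Mrpl15 and Mrpl47 all lie above 0.7, and Mrpl41 is the gene with the widest range.

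Probes that read near-identical copies cannot separate a gene from its copy, and their letters show where this applies. The brightest Mrps18b probe (chr17:36047331-36047390, mm9) shares 55 of its 60 letters in 1 run with a probe for Gm13552, a gene described as similar to Mrps18b, which changed by 1.15. The second Mrps18b probe changed by 0.97 ± 0.13 (SE) and spans more genomic bases than its 60 letters, so it crosses between exons. The brightest Mrps36 probe shares a run of 45 letters with a probe for Gm3544, described as similar to Mrps36, which changed by -0.28. The Mrpl19 probe is the only one behind the largest rise. These 3 probes, as the files give them on mm9, are shown because these readings rest on them.
Mrps18b second probe, chr17:36051313-36051461: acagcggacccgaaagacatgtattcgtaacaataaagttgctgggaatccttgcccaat
Mrps36 brightest probe, chr13:101506215-101509014: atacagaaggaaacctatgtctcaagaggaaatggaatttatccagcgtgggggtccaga
Mrpl19 probe, chr6:81911970-81912029: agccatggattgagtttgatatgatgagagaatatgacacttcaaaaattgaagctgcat

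Mitochondrial ribosomal proteins without an Mrp name on the array were counted apart, in a list of 6 that leaves out Mrpl57. The Mrpl57 probe, described as protein 63, changed by 0.27 ± 0.14 (SE). Of the 6 listed genes 1 was higher (16.7%, beside 13.1% of all genes) and 0 lower, at a median change of 0.019. The gene was Ptcd3, also called Mrps39, a small subunit protein that binds RNA at the messenger's entry. It read 12.35 and 12.28 without Epo and 13.24 and 13.40 with Epo, a 2.0-fold rise with a limma adjusted p of 0.0103. Dap3, also known as Mrps29, changed by -0.036 and Gadd45gip1, a large subunit protein, by 0.40, with limma adjusted p of 0.842 and 0.0597. With the replicate block 2 of the 6 were called.

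Proteins that assemble the ribosome or modify its RNA were represented by 27 genes, of which 8 were higher (29.6%) and 1 lower (3.70%). These shares stand beside 13.1% and 14.3% of all genes, and the median change was 0.24. Mrm3, a methyltransferase of the large ribosomal RNA, read 8.85 and 8.94 without Epo and 10.19 and 10.21 with Epo, a 2.47-fold rise with a limma adjusted p of 0.00603. Rcc1l rose 1.95-fold, Noa1 1.90-fold and Dhx30 1.81-fold, all 3 being assembly factors. Fastkd2, an RNA-binding protein of the same process, was not well above background without Epo and read 5.25 and 4.45 with Epo, at least 1.18-fold higher, with means of 2.98 and 4.85 and a limma adjusted p of 0.0329. Rpusd3, a pseudouridine synthase, was the 1 gene that fell, by 0.58 on the log2 scale with a limma adjusted p of 0.0449. With the percentile over detected probes the split was 7 higher and 2 lower, beside 10.7% and 20.8% of all genes. With the replicate block it was 11 and 4, beside 19.9% and 23.2%. Leaving out the second array without Epo, or the first or second with Epo, left 5, 4 and 4 of these genes called.

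Translation factors carry out initiation, elongation and release on the assembled ribosome. Of 15 such genes 2 were higher (13.3%, beside 13.1% of all genes) and 0 lower, at a median change of 0.050. Mtfmt, which formylates the initiator methionine, read 11.11 and 11.13 without Epo and 11.73 and 11.80 with Epo, a 1.57-fold rise with a limma adjusted p of 0.0197. Gfm1, the elongation factor that moves the ribosome along, rose 1.43-fold (limma adjusted p = 0.0428), and Tufm, the factor that brings in transfer RNA, changed by 0.039. Without the first array without Epo 1 gene was called, without any other single array 0, and with the replicate block 3 were higher and 1 lower.

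Genes that transcribe and maintain mitochondrial DNA gave 3 of 11 higher (27.3%) and 0 lower, at a median change of 0.12. The shares over all genes were 13.1% higher and 14.3% lower. Tefm, the elongation factor of the mitochondrial polymerase, read 8.71 and 7.84 without Epo and 10.01 and 9.55 with Epo, a 2.85-fold rise with a limma adjusted p of 0.0381. Twnk, the helicase that opens mitochondrial DNA, rose 2.07-fold with a limma adjusted p of 0.0210. Tfam, which packages that DNA, changed by -0.062 at its brightest probe, and by 0.03 and 0.72 at its other kept probes. The split was 2 higher and 1 lower with the percentile over detected probes, 2 genes were called without either array without Epo, and 1 without either array with Epo.

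Of 9 nuclear regulators of mitochondrial genes, 8 were tested, 4 were higher and 0 lower. Myc, a transcription factor whose targets include ribosome genes, read 10.58 and 9.78 without Epo and 13.87 and 13.25 with Epo, a 10.4-fold rise with a limma adjusted p of 0.00765. Pprc1, a coactivator of mitochondrial genes, read 7.68 and 6.95 against 9.25 and 8.76, a 3.22-fold rise with a limma adjusted p of 0.0230. Esrra, an estrogen-related receptor, rose 1.70-fold. Ppargc1b, another coactivator, was not well above background without Epo and was at least 2.53-fold higher with it, with means of 4.09 and 5.96 and a limma adjusted p of 0.00530. Nrf1, Gabpa and Yy1, which bind the promoters of many mitochondrial genes, changed by 0.39, -0.0096 and -0.23, and none passed the test. Gabpb1, the remaining tested gene, changed by -0.022 and was not called either. The second probes of Gabpa and Gabpb1 changed by 0.29 and 0.97. With the replicate block Nrf1 was called higher, at a limma adjusted p of 0.0344 against 0.0856 without it.

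Promoters were taken from RefSeq (GRCm38.p6), as 250 bases before to 50 bases after the start of each gene, for the 66 of 75 tested members that had an entry. Both strands were searched for sites known from mitochondrial genes, and a match describes letters only. The NRF1 site (GCGC, then any base, then TGCGC) stood in 12 of 66 members (18.2%), in 11.7% of the tested genes with an entry and in 5.19% of all 27025 promoters. The YY1 site (AAGATGGC) stood in 12 members (18.2%), against 5.47% and 3.19%. The ETS site (CCGGAAG), which the Gabpa protein can bind, stood in 23 members (34.8%), against 20.9% and 9.93%. The E-box (CACGTG), which MYC can bind, stood in 5 members (7.58%), against 11.7% and 8.09%, and the CCAAT box in 27 (40.9%), against 42.9% and 41.1%. None of the 5 motifs contains another.

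Called members and the others held these motifs in the following numbers. The NRF1 site stood in 4 of 19 members called higher and in 8 of 47 not called, the YY1 site in 3 and 9, the ETS site in 6 and 17, the E-box in 2 and 3, and the CCAAT box in 8 and 19. The 100 bases before the start of 6 rising members are shown with motifs in capitals. They mark the NRF1 site in the first 3, for Mrpl17 as read on the opposite strand. In the next pair they mark the CCAAT box, also read on the opposite strand. The last had no match to the 5 motifs in the 300 bases searched. These 6 were not chosen by size of rise alone. Mrpl12 and Mrpl32 were added, while Mrps18b and Mrpl47, which rose more than either, are not shown. Mrps18b and Mrpl47 had none of the 5 motifs in these 100 bases.
Mrpl12, chr11:120484537-120484636, plus strand: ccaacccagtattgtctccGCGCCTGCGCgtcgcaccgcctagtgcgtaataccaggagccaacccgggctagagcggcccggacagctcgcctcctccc
Mrpl17, chr7:105811088-105811187, minus strand: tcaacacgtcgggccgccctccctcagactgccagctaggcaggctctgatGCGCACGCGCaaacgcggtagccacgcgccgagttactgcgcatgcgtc
Mrpl32, chr13:14613038-14613137, minus strand: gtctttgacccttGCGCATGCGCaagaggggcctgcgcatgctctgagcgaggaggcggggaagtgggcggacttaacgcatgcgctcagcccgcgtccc
Mrps30, chr13:118387253-118387352, minus strand: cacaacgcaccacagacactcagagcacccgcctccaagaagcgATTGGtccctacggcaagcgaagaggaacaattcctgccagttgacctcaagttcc
Mrpl50, chr4:49521084-49521183, minus strand: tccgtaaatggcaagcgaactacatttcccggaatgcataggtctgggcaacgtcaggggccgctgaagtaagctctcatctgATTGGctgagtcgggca
Mrps2, chr2:28467966-28468065, plus strand: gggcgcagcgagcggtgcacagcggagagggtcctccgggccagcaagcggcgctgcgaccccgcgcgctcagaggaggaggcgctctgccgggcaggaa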

How the data were processed

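For 4 samples, 200 ng of total RNA was primed with oligo-dT and labelled with Cy3, per the labels' protocols. The deposited files were written, per their file headers, by the scanner software Feature Extraction 10.1.1.1 and hold an intensity for each of 62976 spots that this software had corrected for background. All 4 arrays came from 1 slide and 1 scan, per the file headers. The submitters' processing notes name limma.

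Log2 intensities were shifted to a common 75th percentile over non-control spots. Spots marked as outliers were left out (9 probes lost, 0 spots saturated), spots of a probe were averaged, and each gene took its brightest kept probe, which left 23734 probes of 17554 genes. Gene names came from the files and, through a RefSeq table, where an accession matched for 26316 probes, a symbol for 3856 and a synonym for 735, and the members kept the file's names. Groups were compared by a two-sided test in limma 3.58.1, run in R 4.3.3 with lmFit and eBayes (all 4 arrays, 4.57 total degrees of freedom), with Benjamini-Hochberg adjustment over all genes and a threshold of 0.05. The median SE was 0.14, and the smallest change called was 0.43. The steps were checked on simulated data. The number of arrays limits the precision.

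The replicate numbers were read as the 2 experiments of the design text, which pairs samples across groups; same-numbered samples deviated together with a correlation of 0.386 across genes. The fit with this block was an alternative, as were other normalizations, background correction, filters, a gene's probes and each array left out.

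Members, gene lists and roles were chosen with earlier results of these data known. A gene without a bright group has a bound against the lowest level well above background. The text names, from each subunit, the 6 largest called rises and 4 largest called falls and the 2 changes nearest to 0. It also names 12 members fixed by role (Mrps12, Mrps7, Mrps2, Mrps5, Mrps18b, Mrps36, Mrpl12, Mrpl10, Mrpl11, Mrpl3, Mrpl44 and Mrpl37), members whose probes differ in sign or call, members with only a bound, and up to 2 rises and 2 falls of each list. Other names were added after their values were seen.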

Additional observations from a re-analysis of the deposited data

How the results depend on the processing

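With 2 arrays a group, each call rests on little replication. Of the values of single named genes under the alternatives, 340 kept direction and side of the threshold, 75 lost their call, 13 gained one and 25 turned in sign; the cause was not tested. Small changes turned: Mrps34 (0.71 without scaling, 0.091 with normexp), Mrpl2 (0.73 and 0.081) and Mrpl24 (0.73 and 0.10), Mrps28 (-0.074 with quantile normalization, -0.082 with the percentile over detected probes), Mrpl10 (-0.067 and -0.093) and Mrpl49 (-0.085 and -0.079), Mrps12 (-0.012 over detected probes), Mrps36 (0.55) and Rpusd3 (0.16) without scaling, both below the 0.68 of all genes there, and Mrpl35 (-0.30) and Fastkd2 (-0.019) with normexp. With each array left out, Mrps34 ranged from -0.074 to 0.0059, Mrpl2 from -0.067 to 0.037, Mrpl24 from -0.057 to 0.022, Mrps28 from -0.056 to 0.14, Mrpl10 from -0.071 to 0.14 and Mrpl49 from -0.021 to 0.11.

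Without scaling, 8230 genes were higher and 364 lower, 26 small and 38 large subunit genes were higher, the medians were 1.02 and 0.91, and the lists of proteins without an Mrp name, assembly, translation factors, transcription and regulators had 3, 18, 11, 8 and 7 calls. Without a filter on dim probes limma called 0 of 36310 genes, with 7148 (19.7%) at an unadjusted p under 0.05, among them 20 members, all higher; every count above was 0 there, and the excess of the members' median over all genes was 0.63. With the replicate block, the design's pairing, 3498 genes were higher and 4069 lower, 14 small subunit genes were higher, and the first 3 lists had 2, 15 and 4 calls; the block ended no call among the members or these lists, and called 8 more members, all higher (Mrpl37, Mrpl41, Mrpl46, Mrps10, Mrps18a, Mrps23, Mrps27 and Mrps31), and Nrf1. Quantile normalization gave 5 small subunit rises, medians of 0.22 and 0.074, an excess of 0.17 and 1 translation factor, and the percentile over detected probes gave 5, 0.15 and 0.036 and 1 factor. Normexp gave medians of 0.42 and 0.27, an excess of 0.41, and 2 and 4 calls among proteins without an Mrp name and translation factors. The first of these lists had 2 calls when all 4 arrays had to be well above background and with the mean of probes. Leaving out each array gave 1098 to 2017 genes higher and 1175 to 1946 lower, 2 to 3 small and 4 to 9 large subunit rises, 0 to 1 large subunit falls, medians of 0.23 to 0.34 and 0.12 to 0.22, an excess of 0.22 to 0.33, 4 to 10 assembly, 0 to 1 translation and 1 to 2 transcription calls.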

Other observations

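Genes for the other ribosome and for the mitochondrial ribosome's own products were looked at after the data had been seen. Of 82 tested genes with a cytosolic ribosomal protein name, 1 was higher with Epo and 13 were lower at a limma adjusted p under 0.05. The 1 higher gene was Rpl7l1, named only as like a ribosomal protein, at 0.92 (limma adjusted p = 0.0119). In all, 80 had a change below 0, at a median of -0.34. The 15.9% lower stands beside 14.3% of all genes. With the replicate block 35 of the 82 were lower, where 23.2% of all genes were. The count was 40 with the percentile over detected probes, beside 20.8% of all genes, and 0 after quantile normalization, beside 13.1%. Rps14 and Rpl14 fell by 0.67 and 0.65 on the log2 scale, with limma adjusted p of 0.0401 and 0.0261. The direction of this list turned with the scaling: its median was 0.040 after quantile normalization and 0.41 without scaling. Relative to the median of all genes it was -0.27 here and 0.084 after quantile normalization. Leaving out the scaling cannot change that relative value, as scaling shifts all genes of an array equally. With the first and second array without Epo left out, 5 and 1 of these genes were lower, and without either array with Epo, 0. The genes lie at the top of the signal range, up to 18.45, where changes of all genes were also below 0, at a median of -0.19 for genes at 14 or more. The part of the signal level in this result was not tested.

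The mitochondrial ribosome translates the messenger RNAs that the mitochondrial genome encodes. The 12 of these matched by name on the array had a change below 0, at a median of -0.45, and ATP6 was not analysed here. For 5 of the 12 (ATP8, COX2, COX3, ND3 and ND4L) the files place the probe on chromosome 1 and not on the mitochondrial genome. COX1 and COX2, subunits of cytochrome oxidase, fell by 0.46 and 0.66 with limma adjusted p of 0.0461 and 0.0403, and the other 10 missed the threshold. The 16.7% lower is close to the 14.3% of all genes. With the replicate block 10 were lower, where 23.2% of all genes were. The median was -0.30 after quantile normalization, and without scaling it was 0.30, which lies below the 0.68 of all genes. Without the first array without Epo 1 was called, and without any other single array 0.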
